A study of Mus musculus with 4 samples.

Results

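Interferon-stimulated T cells are T cells that carry RNA of the genes switched on by interferon. They were looked for among cells of mouse tumours that had been measured by droplet single-cell RNA sequencing, in which each RNA molecule is counted once through a unique molecular identifier (UMI). A droplet barcode was taken as a T cell when it held at least 1 UMI of the CD3 genes Cd3d, Cd3e and Cd3g, none of the myeloid genes Csf1r, C1qa and S100a8, and under 20 UMIs per 10000 of 7 tumour cell genes (Krt14, Sox9, Hmga2, Tnnt2, Tubb3, Crabp2 and Ankrd1). Barcodes with fewer than 300 genes or 500 UMIs, or with over 20% of UMIs from mitochondrial genes, were left out. A T cell was called interferon-stimulated when it held at least 1 UMI of Ifit1 and at least 1 UMI of Ifit3. This rule found 66 barcodes among 3496 T cells, out of 42710 barcodes past the minimums and 43494 in all. There were 10 in the first and 5 in the second wild-type (WT) tumour, and 28 and 23 in the first and the second knockout (KO) tumour. Since the UMIs of Ifit1 and Ifit3 chose the cells, the levels of these genes, and of Rsad2, Usp18 and Slfn5, which had been named as markers of this cell state, are described here without a test. T cells with neither Ifit1 nor Ifit3 (3165 cells, called Ifit-negative below) were the comparison group, and 265 T cells held 1 of the pair.

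The tumours grew from a mouse colon carcinoma line, MC38, injected under the skin of the left flank of C57BL/6J mice aged 8 weeks. KO tumours came from MC38 cells without Hnrnpa2b1, an RNA-binding protein of the nucleus, and WT tumours from MC38 cells that kept it. The host mice, and so their T cells, carried no edit according to the labels. Each group had 2 tumours, here WT 1, WT 2, KO 1 and KO 2, dissociated with collagenases, dispase and DNase with no sorting step described. No label gives the edited position, the number of clones or what tumours with the same number share. Libraries held 114136609 to 153162562 UMIs, with a median of 5779 to 10384 UMIs per barcode. In barcodes above the limit for tumour cell genes, Hnrnpa2b1 stood at 585 and 598 CPM (UMIs of a gene per 1000000 UMIs of all genes in the same cells) in the WT tumours and at 377 and 311 in the KO tumours. In T cells it stood at 640 and 569 in the WT and at 577 and 517 in the KO tumours. An RNA count does not read an edit that leaves the transcript in place.

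Interferons are secreted proteins through which cells warn each other of virus or of stray nucleic acid. Type I interferons bind the receptor IFNAR, whose kinases JAK1 and TYK2 activate STAT family factors. These join IRF9 into a complex that binds the interferon-stimulated response element, a repeat of GAAA-type letters in the promoters of antiviral genes. Interferon gamma, made by T cells and NK cells, favours guanylate binding proteins and antigen presentation. IFIT proteins bind foreign RNA, viperin (Rsad2) is a radical enzyme that blocks viral replication, USP18 removes ISG15 from proteins and damps the receptor, and Slfn5 belongs to the Schlafen family of growth regulators.

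The response element is visible in front of the genes that define these cells, and the stretches below are shown for that reason. They come from RefSeq promoter windows of the build GRCm38.p6, 250 bases before each transcript start, and capitals mark matches to the letters GAAA-NN-GAAA, where N is any base, on either strand (TTTC-NN-TTTC when read on the other strand). The first 4 belong to marker genes and the fifth to Isg15, the ubiquitin-like antiviral protein, whose matches overlap one another.
Ifit1: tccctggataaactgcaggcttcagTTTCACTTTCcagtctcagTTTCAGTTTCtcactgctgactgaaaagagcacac
Ifit3: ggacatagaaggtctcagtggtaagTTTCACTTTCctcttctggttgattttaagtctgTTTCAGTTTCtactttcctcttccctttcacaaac
Rsad2: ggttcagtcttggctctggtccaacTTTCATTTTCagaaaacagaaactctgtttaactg
Slfn5: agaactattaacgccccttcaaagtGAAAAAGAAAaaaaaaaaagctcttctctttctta
Isg15: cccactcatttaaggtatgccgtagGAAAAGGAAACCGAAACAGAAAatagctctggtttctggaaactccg

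The Ifit1 stretch is chr19:34640760-34640838 on the plus strand, and its matches begin 104 and 85 bases before the start. Ifit3 has matches 156 and 122 bases before its start within chr19:34583348-34583441, also on the plus strand. The Rsad2 stretch is chr12:26456538-26456597 on the minus strand, with a match 120 bases before the start. Slfn5 has a match 155 bases before its start within chr11:82951922-82951981 on the plus strand. The Isg15 stretch, chr4:156200850-156200921 on the minus strand, holds 3 overlapping matches between 78 and 66 bases before the start. A match is a description of letters, not a measured binding site. Of 27025 RefSeq windows, 936 (3.46%) held the letters. Ifit1 and Ifit3 themselves lie at chr19:34640871-34650009 and chr19:34583531-34588731, inside the cluster of IFIT genes on chromosome 19.

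Before any result, the label of the 66 barcodes was checked against T cell genes other than CD3. A barcode was said to carry T cell marks when it held UMIs of at least 2 of 9 genes (Trac, Trbc1, Trbc2, Cd2, Cd5, Cd6, Cd28, Lck and Thy1) at 5 or more UMIs per 10000, a criterion chosen after the data were seen. It held in 55 of the 66 barcodes and failed in 11, of which 3 were in WT 1, 2 in WT 2, 4 in KO 1 and 2 in KO 2. Genes outside the criterion also set most of the 11 apart from the label. Ptprc (CD45), carried by all blood-derived cells, was found in 2 of the 11 and in 54 of the 55. The collagen and matrix genes Col1a1, Col1a2, Col3a1 and Dcn of fibroblasts ran from 3.32 to 489.7 UMIs per 10000 in the 11, with a median of 34.8, and reached 12 in the 55. They were above that in 7 of the 11, and 3 barcodes held 2419 of the 2659 fibroblast UMIs of the 11. The 11 were also deep, with a median of 19278 UMIs against 3243, and their tumour cell genes stood at 12 against 1.48 UMIs per 10000. B cell genes (Cd79a, Cd79b and Ms4a1) and mast cell genes were at 0 in all 55 barcodes with T cell marks. High doublet scores were held by 5 of the 66 barcodes, of which 1 had T cell marks. Libraries shared 197 barcode sequences, 29 of them among T cells and none among the 66.

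**Figure D1:**
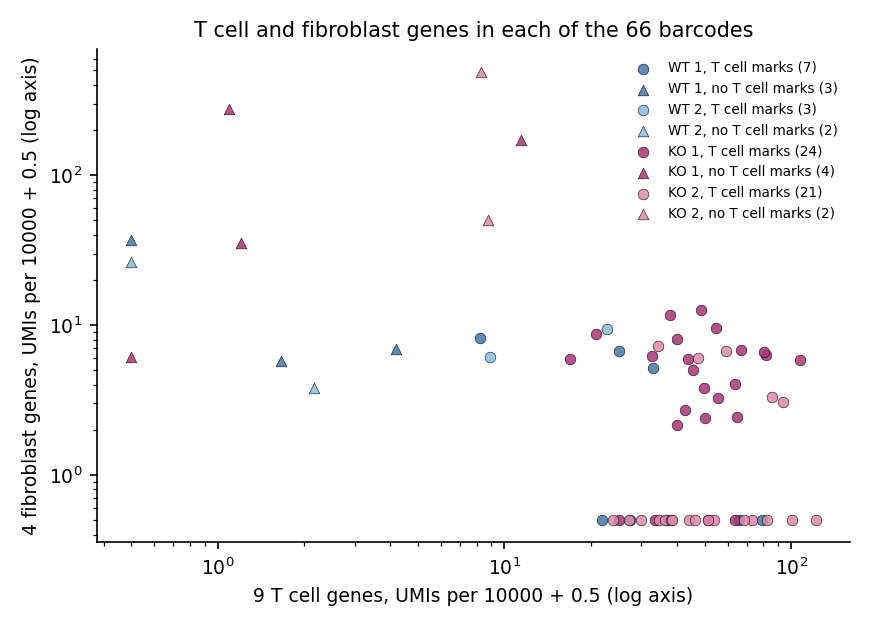
Each symbol is 1 of the 66 barcodes chosen by the rule, with the summed UMIs per 10000 of 9 T cell genes on the horizontal axis and of 4 fibroblast genes on the vertical axis (both log axes, 0.5 added), coloured by tumour. Circles are the 55 barcodes with T cell marks and triangles the 11 without, which lie to the left and mostly higher.

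The 55 barcodes with T cell marks (7 in WT 1, 3 in WT 2, 24 in KO 1 and 21 in KO 2) are therefore described first below, out of 3140 T cells with such marks, and values over all 66 are given for the shares, the counts and the calls that differ. Of the 3140, 2858 were Ifit-negative and 227 held 1 of Ifit1 and Ifit3.

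The share of T cells in this state was small in every tumour and did not separate KO from WT tumours at full depth. By the rule it was 2.17% in WT 1 (10 of 460 T cells, exact 95% binomial interval 1.05% to 3.96%) and 1.04% in WT 2 (5 of 483, 0.337% to 2.40%). It was 2.43% in KO 1 (28 of 1153, 1.62% to 3.49%) and 1.64% in KO 2 (23 of 1400). WT 1 thus lay between the KO tumours. With T cell marks the shares were 1.95%, 0.787%, 2.22% and 1.59% in the same order, again with WT 1 inside the KO range. The difference, KO minus WT, was 0.431 percentage points by the rule (2.04% ± 0.556 against 1.60% ± 0.805, SD, n = 2 each, exact permutation test, two-sided, p = 0.667). With T cell marks it was 0.538 points (1.91% ± 0.449 against 1.37% ± 0.822, SD, n = 2 each, exact permutation test, two-sided, p = 0.667). The smallest p that 2 tumours against 2 allow is 0.333, so no difference could have passed. Without WT 2 the difference turned to -0.138 points by the rule and -0.043 with T cell marks. Intervals cover counting error only.

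Depth and the number of UMIs asked for changed the order of the tumours. T cells held a median of 2266.5 and 2412 UMIs in WT 1 and WT 2 and of 3779 and 2891.5 in KO 1 and KO 2. Thinned to 1000 UMIs a cell, the shares with T cell marks became 0.730%, 0.423%, 0.614% and 0.661% (WT 1, WT 2, KO 1, KO 2), with 5, 16, 7 and 21 shallower cells left out. At 2000 UMIs they were 0.876% and 0.887% in the WT and 1.27% and 1.29% in the KO tumours, groups that did not overlap, with 150, 130, 128 and 223 shallower cells left out (exact permutation p = 0.333, the smallest possible). With at least 2 UMIs of each gene the groups did not overlap either, at 0.435% and 0.414% in the WT and 0.867% and 0.643% in the KO tumours by the rule, and at 0% (0 of 359, exact 95% interval up to 1.02%), 0.525%, 0.741% and 0.681% with T cell marks, with the same p from the exact permutation test. As a share of all barcodes past the minimums, cells with T cell marks and both genes were 0.0554% and 0.0267% in the WT and 0.256% and 0.221% in the KO tumours. T cells with these marks made up 2.84% and 3.40% of barcodes in the WT and 11.5% and 13.9% in the KO tumours.

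**Figure D2:**
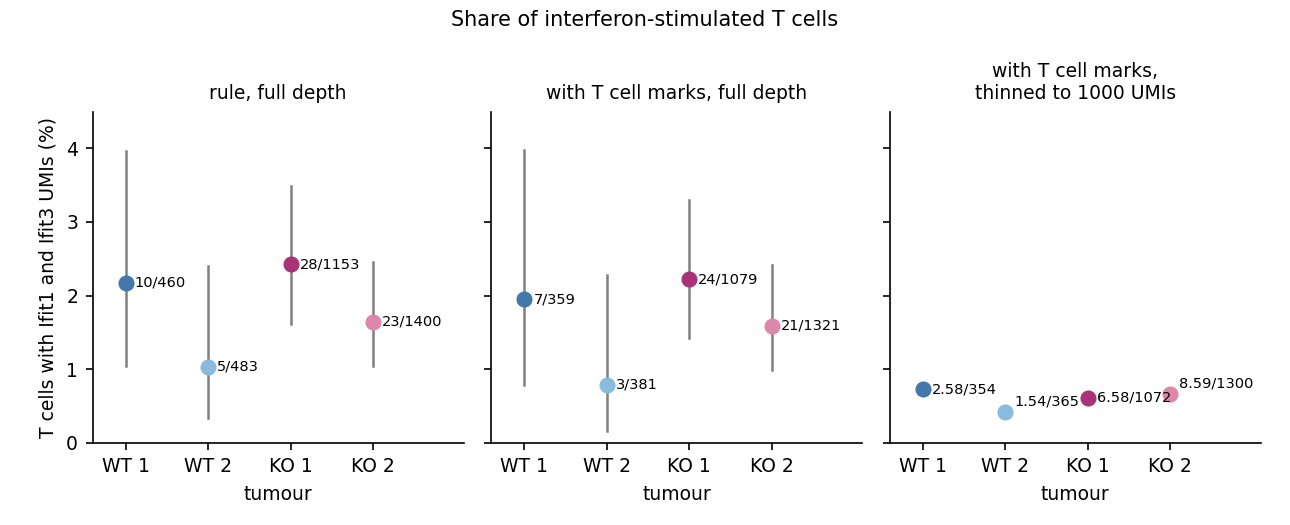
The vertical axis gives the percentage of T cells with UMIs of both Ifit1 and Ifit3 in each tumour, by the rule, with T cell marks, and with T cell marks after thinning to 1000 UMIs. Bars are exact 95% binomial intervals, the numbers are cells (expected cells after thinning) of T cells, and WT 1 lies within or above the KO tumours in all 3 panels.

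Both genes were found in the same T cell more often than their separate frequencies give. With T cell marks, Ifit1 was found in 20, 14, 78 and 88 cells of WT 1, WT 2, KO 1 and KO 2, and Ifit3 in 16, 11, 48 and 62. If unrelated, these would meet in 0.89, 0.4, 3.47 and 4.13 cells, and they met in 7, 3, 24 and 21. No T cell marks are needed for this: over all T cells of the rule the counts were 10, 5, 28 and 23 against 1.58, 0.63, 4.07 and 4.81. Deep cells meet any gene more often, and the part of depth in this excess was not tested. At least 2 UMIs of each gene were held by 2, 2, 10 and 9 of these, and by 0, 2, 8 and 9 of those with T cell marks. Cells with both genes were found outside the T cell gate as well. Barcodes with a myeloid gene and no CD3 held both in 4.57%, 4.26%, 4.65% and 4.39% (WT 1, WT 2, KO 1, KO 2), at median depths of 7961, 4432, 6193 and 5523 UMIs. Thinned to 1000 UMIs these became 0.930%, 1.06%, 1.18% and 0.793%. Barcodes above the tumour gene limit held both in 2.27% and 3.27% (WT) and 11.1% and 6.12% (KO), at median depths of 14233, 15249, 41089 and 33102 UMIs, and in 0.325%, 0.446%, 0.526% and 0.328% once thinned. Barcodes with fibroblast genes and no CD3 held both in 0.957%, 0.802%, 1.02% and 1.05% once thinned. These shares stand for 11.57, 14.82, 1.5 and 1.48 expected cells of 1209, 1848, 147 and 142. At 1000 UMIs the shares of T cells with T cell marks were below those of the myeloid and fibroblast barcodes in all 4 tumours. They were above those of the tumour gene barcodes in WT 1, KO 1 and KO 2, and below in WT 2 (0.423% against 0.446%). The T cell shares stand for 2.58, 1.54, 6.58 and 8.59 expected cells, so these orders rest on few cells and were not tested. The part of free RNA in the droplets was not tested.

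The rest of the interferon program was higher in the same cells. A panel of 86 interferon-induced genes, the IFIT, OAS, PARP, TRIM, HIN-200 and Schlafen families with other antiviral effectors and the ISG15 conjugation genes with Rsad2, Usp18 and Slfn5 but without Ifit1 and Ifit3, was summed in each cell with T cell marks. In cells with both Ifit genes the median was 241, 240, 205 and 224 UMIs per 10000 in WT 1, WT 2, KO 1 and KO 2. In Ifit-negative cells it was 61.1, 56.4, 65.6 and 64.7. Each median of cells with both genes was above every Ifit-negative median, and within a class the 4 tumours lay close together. Cells with 1 of the pair lay between, at 116, 108, 102 and 120. By the rule the medians were 131, 157, 199.99 and 222 with both genes and 57.7, 53.1, 64.9 and 64.4 with neither. The median number of panel genes found per cell was 31, 19 and 12 in cells with both, with 1 and with neither, at similar median depths of 3243, 3077 and 3011.5 UMIs. The ranges did overlap: cells with both ran from 53.8 to 570 UMIs per 10000, Ifit-negative cells reached 381, and 38 of 2858 Ifit-negative cells (1.33%) lay at or above the median of 223 of the cells with both. A few T cells without an Ifit1 or Ifit3 UMI thus held the panel at the same level.

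**Figure D3:**
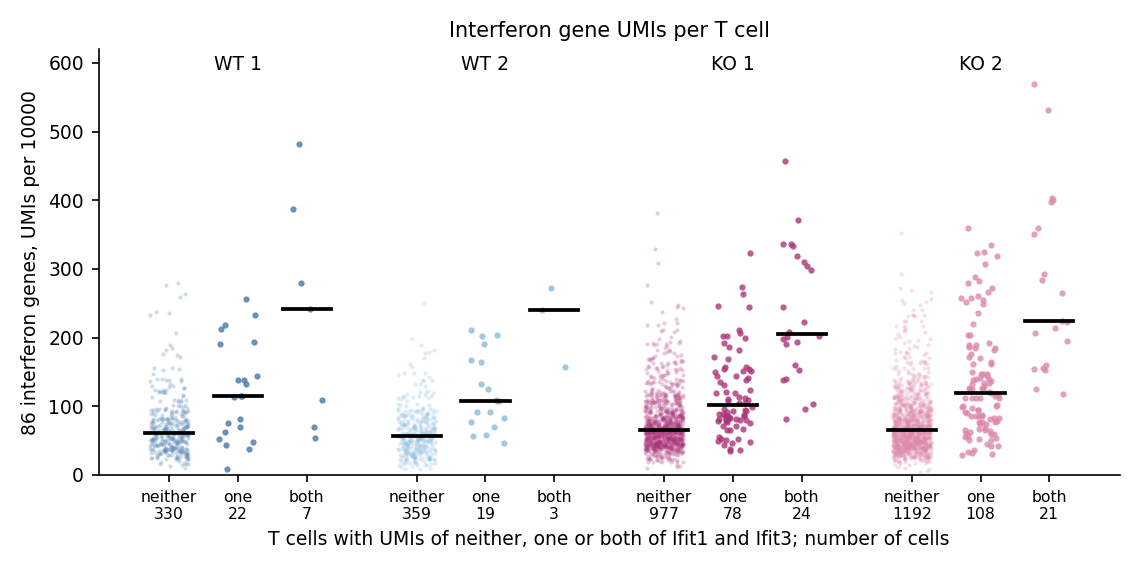
Each point is a T cell with T cell marks, and the vertical axis gives its summed UMIs of 86 interferon genes per 10000 UMIs, by tumour and by whether it held neither, 1 or both of Ifit1 and Ifit3 (number of cells below, black line the median). Medians rise from neither to 1 to both in all 4 tumours.

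The level of the panel also differed within these cells. The 24 cells with 2 or 3 UMIs of Ifit1 and Ifit3 in all had a panel median of 199.6 UMIs per 10000, the 18 cells with 4 to 6 had 201, and the 13 cells with 7 or more had 351. The highest cell held 24 such UMIs. The 3 marker genes that the rule did not count, which are part of the panel, are given as a description. Rsad2 stood at 265, 883, 487 and 910 CPM in the cells with both Ifit genes of WT 1, WT 2, KO 1 and KO 2, and at 7.59, 7.59, 16.4 and 17.7 in Ifit-negative cells. It was found in 68.9% of such cells of the KO tumours against 5.81% of Ifit-negative cells. Usp18 stood at 465, 687, 193 and 273 against 2.85, 17.1, 6.73 and 6.89 CPM, with both WT values above both KO values. Slfn5 stood at 465, 1178, 457 and 606 against 26.6, 33.2, 27.4 and 21.6.

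The next comparison asked which other genes differ between T cells with both Ifit genes and Ifit-negative T cells of the same tumours. Genes of the interferon lists made up most of what rose with T cell marks, across families that act on RNA, on viral entry and on ISG15. Of 14 tested transcription factors of the pathway 5 rose, 1 fell and 8 did not pass, and none of its 7 tested receptor and kinase genes passed. Genes that fell included chemokines and granzymes of cytotoxic cells and the transcription factor Irf8, and, with T cell marks alone, some cell cycle genes. UMIs were summed per tumour and class and fitted with edgeR's quasi-likelihood test with a term for the tumour, in KO 1 and KO 2 only, because the WT tumours held too few such cells (7 and 3 with T cell marks, 10 and 5 by the rule, under the minimum of 20). Of 10461 genes tested with T cell marks, 119 were higher (1.14%) and 84 lower (0.803%) at an adjusted p under 0.05. Without the 5 marker genes 114 were higher, of which 70 are in the interferon lists used here. By the rule, with all 66 barcodes as the base, 251 of 11413 genes were higher (2.2%) and 69 lower (0.605%). Of the 246 higher ones that are not markers, 64 are in the interferon lists. These sets shared 72 genes, 63.2% of the 114 and 29.3% of the 246. In a window of equal UMIs per cell, 59 genes with T cell marks were higher and 26 lower, and DESeq2 gave 82 and 10. The fit has 1 residual degree of freedom and borrows its spread from all genes, and the median log2 fold change of all genes was -0.24 with T cell marks and -0.15 by the rule, the level that each value below should be read against.

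The choice between 55 and 66 barcodes decided part of the result. By the rule the genes of largest rise included Ccn2 (log2 fold change 5.02), Cx3cl1 (4.48), Nhs (4.45), Hs6st2 (4.42) and Cck (4.34) beside Mx2 (5.75), Ifit3b (5.60), Cmpk2 (4.90), Gm6545 (4.90) and Oasl1 (4.36). The fibroblast genes moved in opposite directions: Col1a1 was 1.33 by the rule and -2.19 with T cell marks, Col1a2 1.41 and -2.83, and Col3a1 1.83 and -1.75. Values from here on are with T cell marks unless said otherwise. In these cells the 6 fibroblast genes summed to 3.98, 3.93, 4.47 and 1.21 UMIs per 10000 (WT 1, WT 2, KO 1, KO 2), against 6.61, 10.4, 14.7 and 9.73 in Ifit-negative cells. The 12 phagocyte marks stood at 14.6, 21.6, 14.8 and 15.5 against 7.30, 6.17, 14.7 and 11.3. The 12 dendritic cell marks stood at 15.3, 41.2, 12.1 and 8.19 against 8.51, 7.51, 10.5 and 7.09. Of 6 tested dendritic marks 1 rose and 0 fell, while Flt3, Xcr1, Clec9a and Siglech were at 0 in all cells with both genes. In WT 2, 1 of the 3 cells with both genes held 30 UMIs of dendritic, 17 of phagocyte and 17 of NK cell genes. It held 1 CD3 UMI and 3 UMIs of the 9 T cell genes, and the WT 2 values include it. The part of RNA of fibroblasts, phagocytes and dendritic cells in the results was not tested. Genes given below as changed are from the fit of the KO tumours. Levels of the WT tumours stand beside them as values outside it.

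Isg15, Cmpk2, the tested IFIT relatives and part of the OAS family rose. Isg15 stood at 730, 1570, 792 and 1395 CPM in the cells with both Ifit genes (WT 1, WT 2, KO 1, KO 2) and at 52.2, 34.2, 58.1 and 74.4 in Ifit-negative cells, so that no tumour of one class overlapped the other. Its log2 fold change was 3.89 ± 0.21 (SE, edgeR adjusted p = 3.98e-70), and it was found in 77.8% of the KO cells with both genes against 18.2%. The promoter matches of Isg15 are those printed above. Cmpk2, a nucleotide kinase of mitochondria that adjoins Rsad2 in the genome, stood at 66.4, 196, 162.5 and 167 against 5.69, 4.75, 4.71 and 2.53 CPM and rose by a log2 fold change of 5.34 ± 0.69 (edgeR adjusted p = 3.1e-12). All 3 tested IFIT relatives rose: Ifit3b by 6.06, Ifit1bl1 by 4.48 and Ifit2 by 3.59. Ifit3b and Ifit3, and Ifit1bl1 and Ifit1, are close copies, and how reads were split between them is not known, so these values are uncertain. Some members of the OAS family make the messenger that activates RNase L. Of this family 3 of 6 tested genes rose, namely Oasl1 (4.52), Oas3 and Oasl2 (3.09). Oas3 stood at 0, 196, 213 and 318 CPM in cells with both genes, with no UMI in the 7 cells of WT 1. Oasl1 had no UMI in the WT cells with both genes and stood at 20.3 and 121 in the KO cells.

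Among other antiviral effectors, 21 of 27 tested genes rose and none fell, with a median log2 fold change of 2.00 against -0.24 for all genes. RNA of the GTPase gene Mx1 stood at 133, 491, 60.9 and 212 against 4.74, 3.8, 9.2 and 5.51 CPM and rose by 3.93 (edgeR adjusted p = 1.12e-06). Samhd1, which empties the pool of deoxynucleotides, stood at 465, 1178, 1412 and 1304 against 246, 236, 309 and 292, and rose by 2.07 (edgeR adjusted p = 2.79e-32). Its classes did not overlap, and WT 1 showed the smallest step. Phf11c (4.07), Ddx60 (3.95), Rtp4 (3.54), Isg20 (2.73), the kinase gene Eif2ak2 (2.57), Xaf1 (2.55), Samd9l (2.40) and Bst2 (1.73), which tethers virions to the cell surface, rose as well. Gm6545, annotated as a processed pseudogene, rose by 5.56, and reads of a pseudogene and of the gene it copies may not be separable. Usp18 apart, 2 of 4 ISG15 conjugation genes rose, Isg15 among them. Samhd1 and Bst2 no longer passed in a fit over all 4 tumours once KO 1 or KO 2 was left out. That fit, here and below, takes in WT 1 and WT 2 with 7 and 3 cells with both genes, under the minimum of 20.

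Sensors of nucleic acids rose in part. Ifih1 (MDA5), a sensor of long double-stranded RNA, stood at 66.4, 98.1, 112 and 258 against 12.3, 12.3, 11 and 13.3 CPM and rose by 3.73 (edgeR adjusted p = 5.44e-09). Ddx58 (RIG-I), a sensor of RNA ends, stood at 464.5, 785, 325 and 182 against 43.6, 35.1, 40.2 and 34.5 and rose by 2.68. Dhx58 (3.52) was the remaining one of 3 of 9 tested sensors to pass. Both RNA sensors were separate between classes in all 4 tumours, and the WT cells had the higher Ddx58 values. Zbp1, a sensor of Z-form nucleic acid that can start necroptosis, is in the effector list and rose by 2.45, from 97.7, 79.7, 84.4 and 96.5 to 332, 589, 538 and 515 CPM.

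The transcription factors of the pathway were led by Irf7, the factor that amplifies the response. It stood at 597, 196, 325 and 424 CPM in cells with both Ifit genes against 28.4, 20.9, 35.5 and 39.8, was found in 66.7% against 13.2% of KO cells, and rose by 3.19 ± 0.33 (edgeR adjusted p = 3.13e-19). Stat2 rose by 2.22 (edgeR adjusted p = 0.000706). Irf9, which joins the STAT factors, had no UMI in the WT cells with both genes and stood at 112 and 258 in the KO cells, against 39.8, 48.4, 65.8 and 60.9. Its rise of 1.34 passed with T cell marks (edgeR adjusted p = 0.0299) and not by the rule (0.308) or with DESeq2 (0.288). Irf1, which interferon gamma induces strongly, rose by 0.94 with T cell marks (edgeR adjusted p = 0.0153) and did not pass by the rule (0.0852) or with DESeq2 (0.254). 1 tested factor fell, Irf8, a factor of effector CD8 T cells and of myeloid cells, at 0, 98.1, 112 and 75.8 against 231, 155, 398 and 432 CPM. It was lower in cells with both genes in all 4 tumours, by -2.19 ± 0.31 in the fit (edgeR adjusted p = 4.29e-10). In the fit over all 4 tumours, Irf8 no longer passed without KO 2. Irf1 and Irf9 did not pass in that fit with all 4.

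Upstream of these factors little passed. None of 7 tested receptor and kinase genes passed the test, among them Ifnar1 (0.23), Ifngr1 (0.22) and Jak1 (0.21). Their log2 fold changes ran from -1.3 to 0.231. In simulated counts this fit found 3 of 34 genes set 2-fold higher and 4 of 33 set 2-fold lower, so not passing does not show that a gene is unchanged. Of 7 tested feedback inhibitors of cytokine signalling, Trim21 alone rose (2.50, edgeR adjusted p = 0.048), without passing by the rule (0.0799), and Socs1, which blocks JAK kinases, stood at 0.71 (edgeR adjusted p = 0.751). RNA of type I interferon genes was nearly absent over all barcodes of each library. Ifnb1 had 1, 1, 4 and 1 UMIs in WT 1, WT 2, KO 1 and KO 2, and Ifnz, the highest of them, 8, 11, 11 and 6. Ifng, the type II interferon, had 662, 1124, 3896 and 3561.

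Several gene families that reach into chromatin, ADP-ribosylation and ubiquitin rose too. Of the HIN-200 family, DNA-binding proteins encoded together on chromosome 1, 8 of 12 tested members rose, with a median of 2.39. Ifi208 (3.35) and Ifi206 (3.28) had the largest values, and Ifi203 rose from 171, 144, 163 and 158 to 531, 1472, 812 and 667 CPM. The members are close copies, which leaves their single values uncertain. Of 6 interferon-induced PARP family genes 4 rose, among them Parp14 (2.54, edgeR adjusted p = 3.91e-22), from 93.9, 69.3, 88.9 and 92.4 to 199, 785, 457 and 712.5, and Dtx3l (2.53), the ubiquitin ligase that partners PARP9. Of 11 tested TRIM genes 7 rose, with Trim30d (2.95) and Trim25 (2.21), which ubiquitinates RIG-I, as examples. Slfn8 (2.82) and Slfn1 (1.94) were 2 of 5 tested Schlafen genes other than Slfn5 that rose.

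Families that interferon gamma favours rose in part. Guanylate binding proteins, GTPases that attack the vacuoles of pathogens, rose in 5 of 8 tested genes with a median of 1.51, with Gbp9 (2.29), Gbp4 (1.61), Gbp5 (1.52) and Gbp2 (1.49) among them. Immunity-related GTPases rose in 4 of 6, with Ifi47 (2.24) and Irgm1 (2.13) ahead of Igtp (1.38) and Iigp1 (1.27). MHC class I presentation genes rose in 3 of 19, namely Psmb10 (0.99), Tapbp (0.88) and Psmb8 (0.68). The class I heavy chain H2-K1 (0.14) and its partner B2m (0.33) did not pass. The difference between families was not tested. By the rule the counts were 19 of 28 for the antiviral effectors, 3 rising and 1 falling of 14 transcription factors, 8 of 12 HIN-200 genes, 4 of 11 TRIM genes, 6 of 8 guanylate binding proteins, 7 of 9 immunity-related GTPases and 0 of 19 MHC class I genes, with medians of 1.83 for the effectors and 2.45 for the immunity-related GTPases. Slfn1 did not pass by the rule (edgeR adjusted p = 0.0563).

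**Figure D4:**
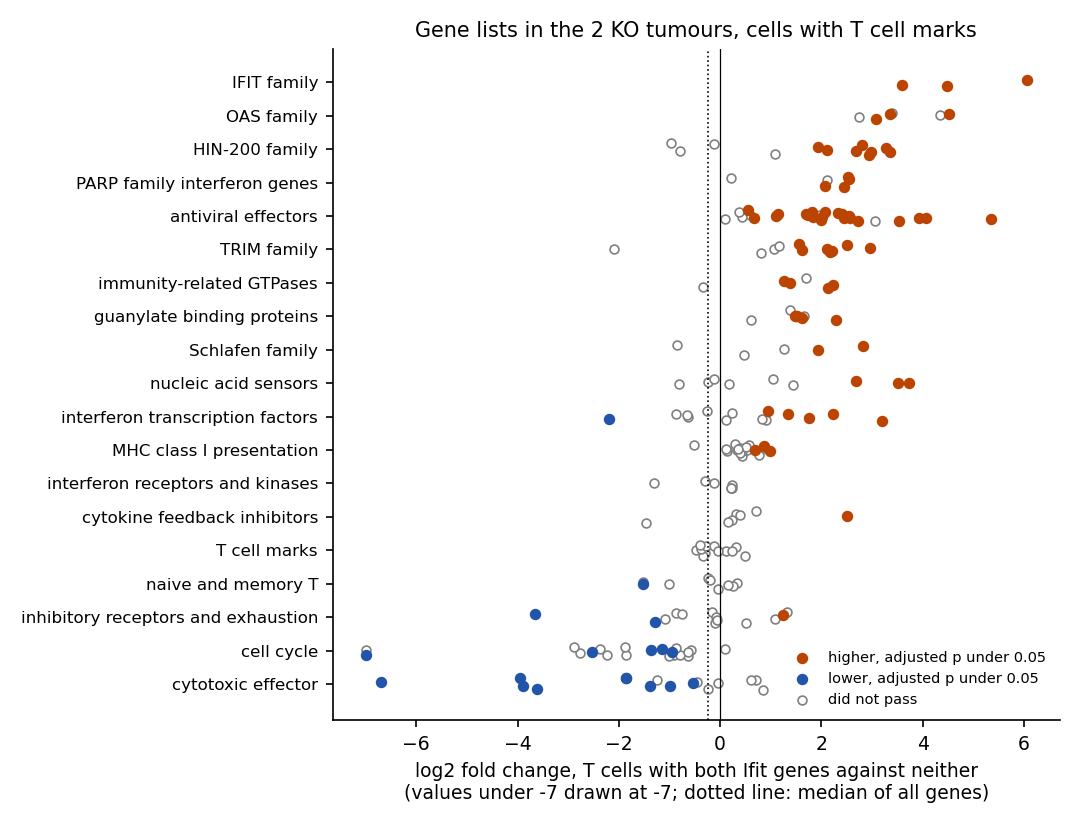
Each point is a gene of a list, placed at its log2 fold change between T cells with both Ifit genes and T cells with neither in KO 1 and KO 2 (cells with T cell marks, values under -7 drawn at -7, dotted line the median of all genes at -0.24). Filled points passed an adjusted p of 0.05 and open points did not, and the interferon families at the top lie to the right of the T cell, cell cycle and cytotoxic lists.

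Outside the interferon lists, the surface proteins Ly6c2 and Cd69 were higher. Ly6c2 (Ly6C), which interferon induces on CD8 T cells, stood at 398, 1079, 1777 and 1758 CPM against 335, 492, 610 and 579.5, and rose by 1.46 with T cell marks (edgeR adjusted p = 5.9e-21) but not by the rule (0.77, edgeR adjusted p = 0.281). The KO tumours show the larger step, and WT 1 hardly any. Cd69, an early activation antigen that keeps T cells in tissue and is induced by type I interferon, stood at 796, 883, 528 and 940 against 244, 319, 234 and 289. It was higher in cells with both genes in all 4 tumours and rose by 1.33 (edgeR adjusted p = 6.92e-09), without passing by the rule (0.62, edgeR adjusted p = 0.612). Cd274 (PD-L1), the ligand of PD-1, stood at 265, 196, 213 and 288 against 44.6, 49.4, 84.8 and 111. Its rise of 1.24 passed edgeR (adjusted p = 0.00601) and not DESeq2 (0.116), nor edgeR by the rule (0.684). In the fit over all 4 tumours Ly6c2 did not pass, Cd69 did not pass without KO 1 or without KO 2, and Cd274 did not pass without KO 1, KO 2 or WT 1.

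Cytotoxic effector genes fell in 9 of 16 tested cases and rose in none, with a median of -1.11, and in 10 of 16 by the rule with a median of -1.61. The chemokines that draw further leukocytes were the most even across tumours. Ccl3 stood at 0, 0, 30.5 and 30.3 CPM in cells with both genes (WT 1, WT 2, KO 1, KO 2) against 97.7, 309, 453 and 412, and fell by 3.94 ± 0.41 on the log2 scale (SE, edgeR adjusted p = 3.53e-19, DESeq2 1.61e-05). Ccl4 stood at 0, 98.1, 183 and 409 against 305, 814, 941 and 923 and fell by 1.85 (edgeR adjusted p = 2.59e-16). Ccl3 and Ccl4 kept their call under all 13 alternatives that could be fitted. The fall was in the level per cell more than in the number of cells: Ccl4 was found in 35.6% of KO cells with both genes and in 28.9% of Ifit-negative ones, so the highest Ccl4 levels were on the Ifit-negative side.

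Perforin (Prf1), which opens the target cell's membrane, stood at 66.4, 98.1, 203 and 91.0 against 233, 254, 386 and 370 and fell by 1.39 (edgeR adjusted p = 7.51e-05, DESeq2 0.104). Ifng stood at 199, 196, 20.3 and 273 against 312, 705, 377 and 451 and fell by 1.85 (edgeR adjusted p = 5.89e-08, DESeq2 0.0258), with KO 1 the lowest. Of 3642 Ifng UMIs in Ifit-negative KO cells, 486 were in 1 cell. Gzma fell by 0.99 (edgeR adjusted p = 0.00118) and Nkg7, a protein of cytotoxic granules, by 0.53 (edgeR adjusted p = 0.0119). Gzmb, the main granzyme of CD8 T cells, did not pass (-0.45, edgeR adjusted p = 0.192), and stood at 465, 196, 1046 and 546 against 613, 877, 1078 and 965. It was found in 71.1% of KO cells with both genes and in 44.8% of Ifit-negative ones. In the fit over all 4 tumours Prf1 did not pass without WT 1 or KO 2, Ifng without KO 1, and Gzma without KO 2.

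The granzymes of the Gzmc to Gzmg cluster were the lowest by value, and they rest on few cells. Gzmc stood at 133, 0, 30.5 and 30.3 against 977, 307, 462 and 368 CPM, was found in 4.44% against 10.1% of KO cells, and fell by 3.90 (edgeR adjusted p = 2.26e-18, DESeq2 2.54e-05), with 631 of its 3662 Ifit-negative UMIs in 1 cell. Gzmf was found in 1 KO cell with both genes and in 119 Ifit-negative ones, where 4172 of 5852 UMIs came from 1 cell, and its fall passed edgeR and not DESeq2 (0.102). Gzmd and Gzmg had no UMI in KO cells with both genes. Counting that 0 as 3 UMIs over the group gives at least 23.8-fold lower for Gzmd and at least 19.3-fold lower for Gzmg, but 1 Ifit-negative cell held 1947 of 3821 Gzmd UMIs and 2544 of 3103 Gzmg UMIs. Neither passed DESeq2.

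**Figure D5:**
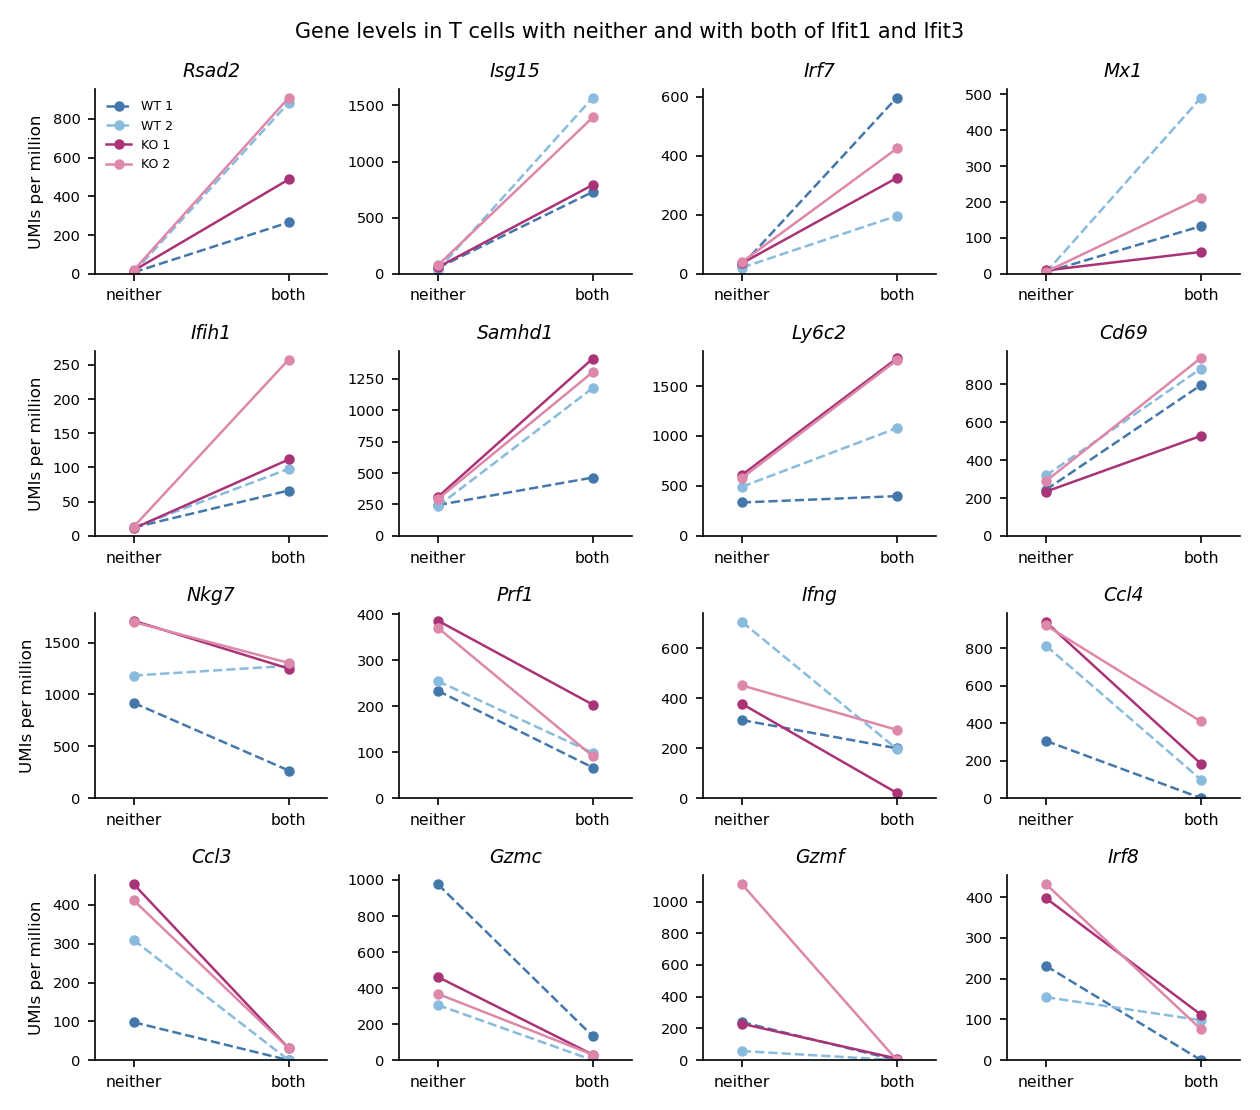
Levels in CPM of 16 genes, summed over T cells with neither and with both of Ifit1 and Ifit3 (cells with T cell marks), with 1 line for each tumour, broken for WT. Lines climb for the interferon genes in the upper rows in all 4 tumours, while those of Ccl3, Ccl4, Prf1 and Irf8 descend in all 4 and Nkg7 climbs in WT 2.

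Other T cell programs gave smaller differences. The 4-1BB gene Tnfrsf9, induced by antigen, fell by 1.27 (edgeR adjusted p = 6.92e-06, DESeq2 0.0651) and was found in 33.3% of KO cells with both genes against 55.1%. Of 13 tested inhibitory receptor and exhaustion genes, Lag3 (-1.28) and Cd160 (-3.66) fell and Cd274 rose, and by the rule 5 fell. Pdcd1 (PD-1) did not pass (-0.88, edgeR adjusted p = 0.285). Of 20 tested cell cycle genes 5 fell and none rose: Stmn1 fell by 2.52, Mki67 by 1.36, Top2a by 1.14 and Hmgb2 by 0.94, and Birc5 had no UMI in KO cells with both genes, at least 3.24-fold lower. By the rule none of the 20 passed in either direction (Top2a -0.29, Mki67 -1.01, Stmn1 -1.17). Mki67, Lag3, Cd160 and Birc5 did not pass DESeq2, nor did Il17a and Cd4, given next. Ccr7, the homing receptor of naive T cells, fell by 1.53 (edgeR adjusted p = 0.0338). Il17a had no UMI in KO cells with both genes and was found in 72 Ifit-negative ones, at least 3.34-fold lower by the count of 0. T cell identity genes did not pass, among them Trac (-0.31), Cd8a (-0.26) and Cd8b1 (0.25), while Cd4 fell by 2.02 (edgeR adjusted p = 0.00528, 6 cells). Each of Tnfrsf9, Lag3, Cd160, Stmn1, Mki67, Birc5, Il17a and Cd4 lost its call in the fit over all 4 tumours when at least 1 tumour was left out, KO 2 in every case, and Lag3, Cd160 and Mki67 did not pass in that fit with all 4.

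By lineage genes, the KO cells with both Ifit genes were mostly CD8 T cells. In KO 1, 75% (18 of 24, exact 95% interval 53.3% to 90.2%) held Cd8a or Cd8b1 against 51.7% of Ifit-negative cells, and in KO 2 it was 61.9% (13 of 21, 38.4% to 81.9%) against 47.7%. Thinned to 1000 UMIs these were 49.4% and 52.2% against 37.4% and 37.1%. By the rule the shares were 64.3% and 56.5% against 49.3% and 45.5%. In the WT tumours 1 of 7 and 0 of 3 cells with both genes held them (a count of 0 of 3 sets no useful limit), against 32.1% and 34.0% of Ifit-negative cells. In fibroblast-gene barcodes without CD3, which should lack them, Cd8a or Cd8b1 was found in 0.469% to 3.53% at median depths of 3386 to 9104 UMIs. In barcodes above the tumour gene limit without CD3 it was found in 1.11%, 0.335%, 13.8% and 7.45% (WT 1, WT 2, KO 1, KO 2), at median depths of 14153.5, 15110, 37856.5 and 32308 UMIs. Cd4 was held by 12.5% and 14.3% of KO cells with both genes and by 22.9% and 21.5% of Ifit-negative ones. Foxp3, the factor of regulatory T cells, was held by 8.33% and 0% against 7.27% and 7.13%, and the gamma-delta receptor genes Trdc or Tcrg-C1 by 8.33% and 14.3% against 7.37% and 8.98%. Mki67 or Top2a was found in 50.0% and 23.8% against 37.8% and 34.8%, so the KO tumours went in opposite directions. Seen from the subsets, both Ifit genes were held by 3.21% (18 of 561) and 2.05% (13 of 635) of T cells with Cd8a or Cd8b1 in KO 1 and KO 2. For Cd4 it was 1.22% (3 of 246) and 1.10% (3 of 272), and for Foxp3 2.5% (2 of 80) and 0% (0 of 91). Cells with Trdc or Tcrg-C1 held both in 2.53% (2 of 79) and 2.44% (3 of 123), near the CD8 shares. Exact 95% intervals for CD8 were 1.91% to 5.02% and 1.09% to 3.475%. For Cd4 they were 0.252% to 3.52% and 0.228% to 3.19%, overlapping those of CD8 in each tumour. Median depths over both KO tumours were 3959, 3159 and 2831 UMIs for cells with CD8, Cd4 and gamma-delta genes.

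Whether the response inside these cells differs between KO and WT tumours could not be tested, since the WT tumours held 10 and 5 of them by the rule and 7 and 3 with T cell marks. As values, 107 of the 114 genes that rose in the KO tumours were also higher in the summed WT cells with both genes than in WT Ifit-negative cells, and 72 of the 84 that fell were lower there, of which 17 had no UMI in the few WT cells. The same counts over all tested genes were not made. With all 4 tumours fitted, the median log2 fold change of all genes with T cell marks was -0.262. A lower value in few WT cells thus does not by itself show the same fall.

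The interferon background of the remaining T cells was compared between KO and WT tumours in Ifit-negative cells. With T cell marks most interferon genes did not pass the test, and nor did most marks of other kinds. Higher in KO were 3 of 12 tested T cell marks, 3 of 12 phagocyte marks and 0 of 6 fibroblast marks. With T cell marks, 306 of 11311 genes were higher in KO (2.71%) and 240 lower (2.12%) by edgeR at an adjusted p under 0.05. None of 26 antiviral effectors, 12 HIN-200 genes, 8 guanylate binding proteins or 9 immunity-related GTPases passed. At the shares called over all genes, few or none would pass in lists this short. Of the transcription factors 3 of 14 were higher in KO, namely Stat3 (1.08), Irf8 (1.06) and Stat4 (0.84). Ifnar1, the type I interferon receptor chain, stood at 89.1 and 93.0 CPM in the WT and at 195 and 196 in the KO tumours (log2 fold change 1.04, edgeR adjusted p = 0.0122). Cd8a (0.86) and Cd8b1 (0.73) were higher in KO, as was Cd274 (1.00). The phagocyte genes Apoe (1.19) and Lyz2 (1.06) were higher in the same contrast, and the part of other cells' RNA in it was not tested. By the rule 1766 of 12110 genes were higher (14.6%) and 1708 lower (14.1%), with 10 of 28 antiviral effectors, 8 of 14 transcription factors and 5 of 7 receptor genes among the higher ones. These counts hang on the libraries and filters: with T cell marks 3 genes were higher and 0 lower without KO 1 and 54 and 10 without high doublet scores. Unadjusted, 2527 genes with T cell marks and 5127 by the rule had p under 0.05.

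T cells with a UMI of 1 of Ifit1 and Ifit3 were the larger group (22, 19, 78 and 108 with T cell marks in WT 1, WT 2, KO 1 and KO 2), and every tumour could be fitted. Against Ifit-negative cells, 282 of 8974 genes were higher (3.14%) and 40 lower (0.446%) by edgeR at an adjusted p under 0.05, and 928 had an unadjusted p under 0.05. Of the 277 higher genes other than the markers, 48 are in the interferon lists, with 10 of 11 tested HIN-200 genes and 12 of 27 antiviral effectors. Without KO 1 42 genes were higher and 12 lower, and without KO 2 61 and 12. The 277 shared 52 genes with those that rose in cells with both, 45.6% of that set and 18.8% of the 277. Fibroblast marks rose in 5 of 6 tested genes here, and in none of 6 in cells with both genes, so RNA of other cells moved with this class. Its part was not tested. Cytotoxic genes fell in 8 of 16.

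The response element letters were counted over the genes that rose in cells with both Ifit genes, as a description with no test. Of the 117 that rose and are not Ifit1 or Ifit3, 93 had a RefSeq window and 29 of these (31.2%) held GAAA-NN-GAAA on either strand. It was held by 272 of 7828 tested genes with a window (3.47%), and by 2 of 65 (3.08%) of those that fell. Matches within a window may overlap, as in Isg15. No window was found for Usp18 and Mx1, and the windows of Cmpk2, Irf7, Oasl1, Ifih1, Gzmf, Gzmc and Ccl3 did not hold these letters.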

How the data were processed

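Droplet libraries of 2 WT and 2 KO tumours were used as deposited: UMI counts per gene and barcode over 55450 features, which the authors made on the mm10 genome. The labels' protocols give Cell Ranger as version 5.0.1, and the file headers as 6.1.2. Seurat 5.1.0 is listed in the submitters' processing notes without its role. Groups come from the sample titles. The members and gene lists, and the genes named as markers, were chosen with earlier results of these data known. The requirement for T cell marks was added after the data were seen.

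UMIs were summed per tumour and class of T cell and tested with edgeR 4.0.16 (quasi-likelihood, TMM, low counts filtered with filterByExpr, Benjamini-Hochberg adjustment over all genes tested, threshold 0.05) in R 4.3.3. A tumour needed 20 members to enter the main fit within tumours. KO against WT among members, and its interaction, were therefore not fitted. Alternatives did not keep this minimum. Fits over all 4 tumours, or without 1 of them, took in WT 1 and WT 2 with 7 and 3 members with T cell marks. With these marks, the window of UMIs kept 12 and 11 members in KO 1 and KO 2, and the stricter exclusion 6 and 13. DESeq2 1.42.0 was an alternative, as were RLE scaling, no low-count filter, other depth windows, CD3 and exclusion limits, and the removal of high doublet scores (Scrublet in scanpy 1.11.5; the highest 0.8% per 1000 barcodes, since its own threshold marked 0% to 4.36% of barcodes). Scripts were tested on simulated data. There the fit of cells with both Ifit genes found 25 of 33 genes set 4-fold higher and 6 of 34 set 4-fold lower, so it misses many falls. Nothing says whether tumours with the same number share a mouse cohort. The p-values of edgeR rest on a spread that is partly borrowed from other genes. For cells with both Ifit genes against Ifit-negative cells in the KO tumours, it was taken wholly from the trend over all genes. A gene's own spread between KO 1 and KO 2 did not enter its edgeR p-value there.

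Named genes were the markers, list members of largest change past the threshold, and the 10 largest changes in each direction past it, alike in each fitted tumour and above 20 CPM (UMIs per 1000000) in a class. Gene positions are from the mm10 annotation table or RefSeq. The depth per library and per cell limits the precision: 45 KO cells with T cell marks and both Ifit genes hold few UMIs of any gene. Some results that concern items withheld from this text are not reported here.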

Additional observations from a re-analysis of the deposited data

Results flagged for a closer look

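For 3 results both KO tumours moved one way and both WT tumours the other or not at all. These differences between KO and WT were not tested, and they rest on 7 and 3 WT cells with both Ifit genes and T cell marks. Chance and few cells can give such patterns among the many genes compared.

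The share of cells with Cd8a or Cd8b1, in cells with both Ifit genes minus Ifit-negative cells, was +23.3 and +14.2 percentage points in KO 1 and KO 2 and -17.8 and -34.0 in WT 1 and WT 2. The KO mean exceeded the WT mean by 44.65 points. Oasl1 had no UMI in the WT cells with both genes, and its difference between classes was 70.2 CPM (UMIs per 1000000) larger in the KO tumours. Irf9 likewise had no UMI there, and its difference between classes was 165.5 CPM larger in the KO tumours.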

How the results depend on the processing

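Counts below are genes other than the markers past an adjusted p of 0.05, higher then lower. By the rule, members against Ifit-negative cells gave 246 and 69. DESeq2 gave 142 and 13, the same window of UMIs per cell 74 and 15, the stricter exclusion of other cells 44 and 21, at least 2 CD3 UMIs 152 higher, no tumour term 110 lower, and all 4 tumours 288 lower. With T cell marks the counts were 114 and 84. DESeq2 gave 10 lower, the window 59 and 26, the stricter exclusion 45 and 21, and all 4 tumours 42 lower. Leaving out each tumour in the fit of all 4 gave 82 to 263 and 98 to 394 by the rule, and 42 to 106 and 13 to 38 with T cell marks. For KO against WT in Ifit-negative cells by the rule (1766 and 1708), DESeq2 gave 902 and 918, at least 2 CD3 UMIs 576 and 647, and no high doublet scores 1079 and 1091, with 1290 to 1976 and 1015 to 1839 without each tumour. With T cell marks (306 and 240), DESeq2 gave 147 and 107, no filter 728 and 462, no high doublet scores 54 and 10, and leaving out a tumour 3 to 570 and 0 to 546. Cells with 1 of the pair (277 and 40) gave 42 to 400 and 12 to 60 without each tumour. The cause of these shifts was not tested beyond fewer cells or samples.

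With the tumour number as a replicate block the KO against WT counts with T cell marks became 427 and 382, and the share difference stayed at 0.431 and 0.538 points (exact permutation p = 0.5). Same-numbered samples deviated apart (r = -0.201 over genes), and with crossed numbers these counts were 923 and 767. The share difference, -0.138 and -0.043 without WT 2, ranged to 1.00 and 1.12 without another tumour. The CD8 excess by the rule (12.97 points) was 9.255 when thinned. Signs turned for Gzmb in the same window of UMIs (0.18, and 0.35 by the rule), and for Irf1 without KO 1 (-0.06 in a range without each tumour up to 0.86, and by the rule -0.086, up to 0.69). By the rule they also turned for Irf9 without KO 2 (-0.18, up to 0.72), for Cd69 without KO 2 (-0.13, up to 0.47), and for Ly6c2 over all 4 tumours (-0.006), without KO 1 (-0.17) and without KO 2 (-0.45, up to 0.33). Of 42 called genes named with T cell marks, 10 of 21 higher and 2 of 21 lower ones passed under each alternative that could be fitted. Leaving out a KO tumour from the fit of KO tumours leaves no degrees of freedom and was not run.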

Other observations

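Some genes outside the lists, chosen after their values were seen, rose in the KO cells with both Ifit genes and T cell marks. They were the ubiquitin ligase Rnf213 (3.05, edgeR adjusted p = 2.02e-31), the nuclear body gene Pml (2.73, edgeR adjusted p = 2.76e-07), the chemokine Cxcl10 (1.90, edgeR adjusted p = 1.25e-11) and the heat shock genes Hspa1a (2.65, edgeR adjusted p = 4.16e-08) and Hspa1b (2.53, edgeR adjusted p = 6.92e-06). NK marks were found in 41.7% and 81.0% of KO cells with both genes against 51.6% and 49.3% of Ifit-negative ones, opposite in the KO tumours. They were also found in 55.8% and 47.1% of KO 1 and KO 2 barcodes with fibroblast genes and no CD3, at median depths of 3386 and 9104 UMIs.

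The neutrophil list had 2 of 5 tested genes higher, Acod1 (2.89), with 26 of 27 UMIs in 1 cell, and Hdc (3.09), with 7 of 10 UMIs in 1 cell. T cells set aside for a UMI of Csf1r, C1qa or S100a8 held both Ifit genes in 4.55% (9 of 198), 2.86% (4 of 140), 4.46% (73 of 1636) and 3.57% (42 of 1178) in WT 1, WT 2, KO 1 and KO 2.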
